A study of Homo sapiens with 6 samples.

Results

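The cytosolic ribosomal proteins are the protein subunits of the ribosome, the particle that translates mRNA in the cytosol. Their mRNAs were compared in the established human glioma line U87, in cells that carried IL-33 constructs or an empty vector. A gene was counted here when its symbol in the array annotation was of the RPL or RPS series (such as RPL18 or RPS3, with A, X or L allowed as last letter), or was RPLP0, RPLP1, RPLP2 or RPSA, and was the only symbol of a probe set. Pseudogenes were left out. The rule found 68 genes among the 18132 genes of the array, 44 of the large and 24 of the small ribosomal subunit. Between them they had 176 probe sets, and 50 of the 68 genes had several, of which the one that was highest on average over the 6 arrays was taken. A further 38 probe sets carried a ribosomal protein symbol together with another symbol, and RPL17, RPL36A, RPS12 and RPS26 were measured only on these and were not counted.

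The series held 6 Affymetrix PrimeView arrays. There were 2 clones of U87 cells with IL33 DNLS, an IL-33 from which the nuclear localization signal had been deleted (ΔNLS, clones 3 and 4), 3 clones with full-length IL33 (called IL-33 clones here, numbered 3, 5 and 9) and 1 control, which was U87 with the empty pcDNA vector. The cytokine IL-33, a relative of IL-1, is released by damaged cells and is otherwise held on chromatin in the nucleus. According to the study's methods the constructs were transfected stably and cells were selected with G418, so the control carried the vector and the selection as well. Each ΔNLS and IL-33 line was 1 clone, and the labels do not say whether the control was a single clone. Differences between clones that have nothing to do with the construct enter every comparison. Nothing said that the RNA came from separate cultures. The p-values therefore cover no more than the spread among the clones, which may be technical, and the single control was assumed to vary as much as the clones do.

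Ribosomal proteins are made in roughly equal amounts, and copies that are not built into a subunit are degraded. Their mRNAs are among the most abundant of a growing cell, and most begin with a terminal oligopyrimidine (TOP) start, a C followed by a run of C and T at the very first base of the transcript. This start lets TOR signaling, through the RNA-binding protein LARP1, turn the translation of the whole family up or down together, which does not by itself change the amount of mRNA that an array reads. In gliomas, as in other tumors, growth rests on a high rate of ribosome production.

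The start of the gene was shown for 10 of the members named below, to let the TOP start be seen. Each line gives 15 bases before and 15 bases from the annotated start in RefSeq (GRCh38.p14), 5′ to 3′ on the strand of the gene, with the TOP run in capitals.
RPS3: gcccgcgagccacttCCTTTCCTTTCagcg
RPL18: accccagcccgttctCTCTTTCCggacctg
RPS27: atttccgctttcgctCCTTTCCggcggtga
RPL34: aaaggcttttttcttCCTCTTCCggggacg
RPS3A: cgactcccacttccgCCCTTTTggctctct
RPS7: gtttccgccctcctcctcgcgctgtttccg
RPS27L: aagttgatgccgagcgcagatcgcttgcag
RPL6: tatttgtatcctcagtgaatcagaaccaga
RPL9: gtacgtaatgacgacagacgttctttcttt
RPS29: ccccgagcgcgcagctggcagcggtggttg
These windows lay at chr11:75399503-75399532 (RPS3, plus strand), chr19:48619164-48619193 (RPL18, minus), chr1:153990747-153990776 (RPS27, plus), chr4:108620561-108620590 (RPL34, plus), chr4:151099613-151099642 (RPS3A, plus), chr2:3575245-3575274 (RPS7, plus), chr15:63157463-63157492 (RPS27L, minus), chr12:112411428-112411457 (RPL6, minus), chr4:39458908-39458937 (RPL9, minus) and chr14:49598696-49598725 (RPS29, minus). Each window runs from the promoter into the first exon. RPS27 and its paralogue RPS27L are both shown because the first has the TOP run at the annotated base and the second has none there. The last 5 have no TOP run at the annotated base, which says only that these letters are not at that base.

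A promoter window of 250 bases before to 50 bases after the start was at hand for 56 of the 68 members. A TOP start (C followed by at least 4 pyrimidines) stood at the annotated base in 38 of these (67.9%), against 4.04% of all 27305 windows. On both strands of the window, CCGGAAG, an ETS-type sequence, was in 21 members (37.5%, against 10.7% of all windows), CTCTTTC in 13 (23.2%, against 7.71%), ATGGCGG, a YY1-type sequence, in 11 (19.6%, against 5.72%), and CACGTG, the E-box bound by MYC, in 3 (5.36%, against 7.43%). A match is a description of the letters and not a bound site.

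The transfected gene was read first as a check of the labels. IL33 had levels of 6.50 and 6.62 in the ΔNLS clones, 8.38, 6.40 and 9.50 in the IL-33 clones and 3.46 in the control (all levels are log2 values as deposited). All 5 transfected clones lay above the control and above the background level of 4.81, which was the 95th percentile of 333 olfactory receptor genes, and the control lay below it. The difference from control did not pass the test in either group (limma with Benjamini-Hochberg adjustment over all 18132 genes, adjusted p = 0.0774 for ΔNLS and 0.0575 for IL-33), and both passed without IL-33 clone 5 (0.00752 and 0.0102). The probe set does not show whether the localization signal was present. Of 9 markers of a glioma line, 6 lay above background on all arrays (VIM, CD44, NES, S100A6, ANXA2 and GFAP). SOX2, OLIG2 and CDKN2A lay above it on some arrays only. Of 8 markers of other cell types measured, 5 lay below background on all arrays (PTPRC, CD3E, EPCAM, ALB and MBP). PECAM1 and AIF1 lay above it on some arrays. RBFOX3 lay above it on all, at 4.85 to 5.72, beside 5.83 to 6.43 for GFAP.

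The 2 ΔNLS arrays stood apart from the other 4 in the shape of their values. Their median over all probe sets was 5.43, against 5.61 to 5.62 on the other arrays, while their 99th percentile was 11.82 and 11.78, against 11.69 to 11.70. High signals were thus higher and low signals lower on the ΔNLS arrays before any gene is considered, and the ribosomal protein genes lie at the high end: 53 of the 68 had a mean level above 12. The ΔNLS construct and its arrays cannot be told apart. Results for ΔNLS are therefore given for the deposited values and, for the counts, medians and named genes on which they turn, after quantile normalization, which gives all 6 arrays the same distribution.

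As deposited, ribosomal protein mRNAs were higher in the ΔNLS clones than in the control. In all, 38 of 68 members rose (55.9%, against 14.8% of all genes called higher), 1 fell (RPL6, against 23.5% of all genes called lower) and 29 did not pass the test. The median difference of the members was 0.32 (log2), beside −0.09 over all genes. Both ΔNLS clones were above the control in 53 members (77.9%, against 37.8% of all genes) and both below it in 8 (11.8%, against 51.4%). The rise was small for most: among the 68 the difference ran between −0.47 and 1.35, and 2 genes, RPS3 and RPS27L, exceeded a 2-fold change. The arrays read bulk RNA, so more of these mRNAs per cell and less of the other RNA cannot be told apart, nor can fewer cells of a type and less RNA per cell.

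After quantile normalization the same comparison gave 22 members higher (32.4%, against 19.9% of all genes) and 3 lower (RPL6, RPS3A and RPL23A, 4.41%, against 16.5%), and all 22 were among the 38. Both clones were then above the control in 46 members (67.6%, against 47.8% of all genes) and both below it in 21 (30.9%, against 40.8%). The median difference of the members was then 0.15, beside 0.05 over all genes. The 16 calls lost were, among others, those of RPL11, RPL28, RPL41, RPLP1, RPS2 and RPS18, while the 6 largest increases were called with both sets of values. Without ΔNLS clone 3 the deposited values gave 25 members called in all, in place of 39.

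**Figure D1:**
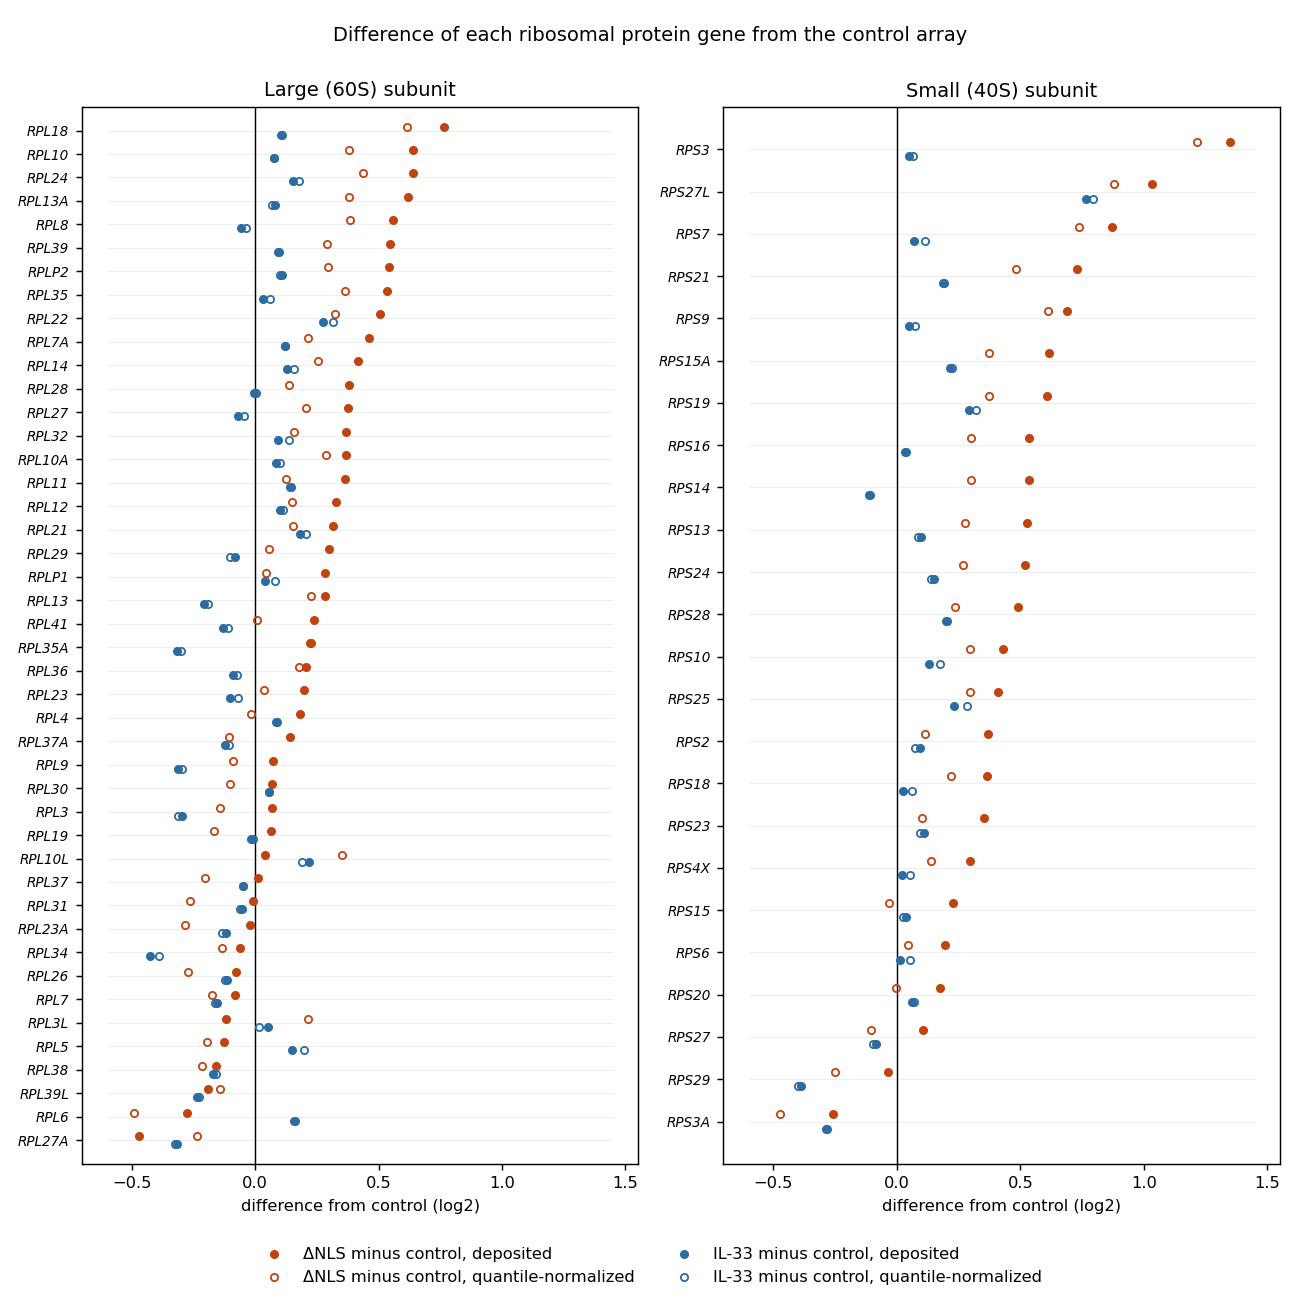
Difference from the control array (log2, x axis) of each of the 68 ribosomal protein genes (y axis, ordered within each subunit by the ΔNLS difference), for ΔNLS minus control (orange) and IL-33 minus control (blue), as deposited (filled) and after quantile normalization (open). The filled orange points lie mostly right of 0, the open ones are nearer to it for most genes, and the blue points lie around 0 except RPS27L.

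RPS3, a small-subunit protein at the mRNA entry channel that in human cells also takes part in DNA repair, changed most. Its level was 12.56 and 12.46 in the ΔNLS clones, 11.12, 11.28 and 11.23 in the IL-33 clones and 11.16 in the control. Both ΔNLS arrays were above every other array by more than the whole range of the other 4. The difference was 1.35 ± 0.11 (SE) from the control (2.55-fold, adjusted p = 0.00152, n = 2 and 1) and 1.30 ± 0.08 from the IL-33 clones (2.46-fold, adjusted p = 0.000749, n = 2 and 3). After quantile normalization these were 1.21 (adjusted p = 0.00178) and 1.15 (adjusted p = 0.000836). Only 1 probe set measured RPS3 alone, and the 2 shared with the small nucleolar RNA SNORD15A, which lies in an intron of the gene, gave 0.09 and 0.28 against control.

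RPS7, a small-subunit protein and one of the genes mutated in Diamond-Blackfan anaemia, was at 12.74 and 12.67 in the ΔNLS clones, 11.86, 11.90 and 11.96 in the IL-33 clones and 11.84 in the control. The ΔNLS clones did not overlap the other 4 arrays. The rise was 0.87 ± 0.09 against control (adjusted p = 0.00241) and 0.80 ± 0.06 against IL-33 (adjusted p = 0.00103), and 0.74 and 0.62 after quantile normalization (adjusted p = 0.00328 and 0.00174). The 2 probe sets that RPS7 shares with the pseudogene RPS7P1 gave 0.47 and 0.52 against control, in the same direction and smaller.

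RPL18, a large-subunit protein, was at 12.37 and 12.28 in the ΔNLS clones, 11.58, 11.79 and 11.63 in the IL-33 clones and 11.56 in the control. It rose by 0.76 ± 0.11 against control (adjusted p = 0.0059), and its 2 other probe sets, the second of them of low signal, gave 0.86 and 0.69. RPS21, a small-subunit protein, was at 13.51 and 13.49 in the ΔNLS clones, 12.89, 13.06 and 12.94 in the IL-33 clones and 12.77 in the control, a rise of 0.73 ± 0.09 against control (adjusted p = 0.00408). RPS9, a small-subunit protein near the mRNA entry, was at 12.04 and 11.96 in the ΔNLS clones, 11.26, 11.46 and 11.34 in the IL-33 clones and 11.31 in the control, a rise of 0.69 ± 0.11 (adjusted p = 0.0073). In these 3 genes the ΔNLS clones did not overlap the other arrays, and the differences after quantile normalization were 0.61, 0.48 and 0.61. Without ΔNLS clone 3 the calls of RPL18 and RPS9 against control were lost (adjusted p = 0.0521 and 0.0565).

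RPS27L, a paralogue of RPS27 that p53 induces in human cells, stood out by the size of its difference in the IL-33 clones. It was at 12.75 and 12.71 in the ΔNLS clones, 12.35, 12.55 and 12.49 in the IL-33 clones and 11.70 in the control. The lowest transfected clone was above the control by more than the range of the 5 clones. The rise was 1.04 ± 0.10 in ΔNLS (2.05-fold, adjusted p = 0.00248) and 0.77 ± 0.10 in IL-33 (1.70-fold, adjusted p = 0.0155) against control, and 0.88 (adjusted p = 0.0039) and 0.79 (adjusted p = 0.0143) after quantile normalization. RPS27 itself was at 12.94 and 12.84 in the ΔNLS clones, 12.72, 12.72 and 12.64 in the IL-33 clones and 12.78 in the control, with differences from control of 0.11 in ΔNLS and −0.08 in IL-33, neither of which passed (adjusted p = 0.357 and 0.587). The RPS27L call in IL-33 rests on few arrays: it was lost when only the 2 groups were fitted (adjusted p = 0.113) and without IL-33 clone 9 (0.0614), ΔNLS clone 3 (0.113) or ΔNLS clone 4 (0.112). Averaging its 2 probe sets also ended the call (0.171), the other of which lay below background on all arrays.

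The other members whose symbol ends in L are testis- or muscle-enriched paralogues in human tissues. RPL10L was at 4.09 and 4.18 in ΔNLS, 4.28, 4.38 and 4.28 in IL-33 and 4.09 in the control. RPL3L ranged from 3.58 to 4.07 over the 6 arrays. These 2 lay below background on all arrays and were the only members whose mean did. RPL39L lay above background, at 8.11 and 8.13 in ΔNLS, 7.79, 8.50 and 7.95 in IL-33 and 8.31 in the control, with no difference that passed (adjusted p = 0.622 for ΔNLS and 0.669 for IL-33 against control).

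**Figure D2:**
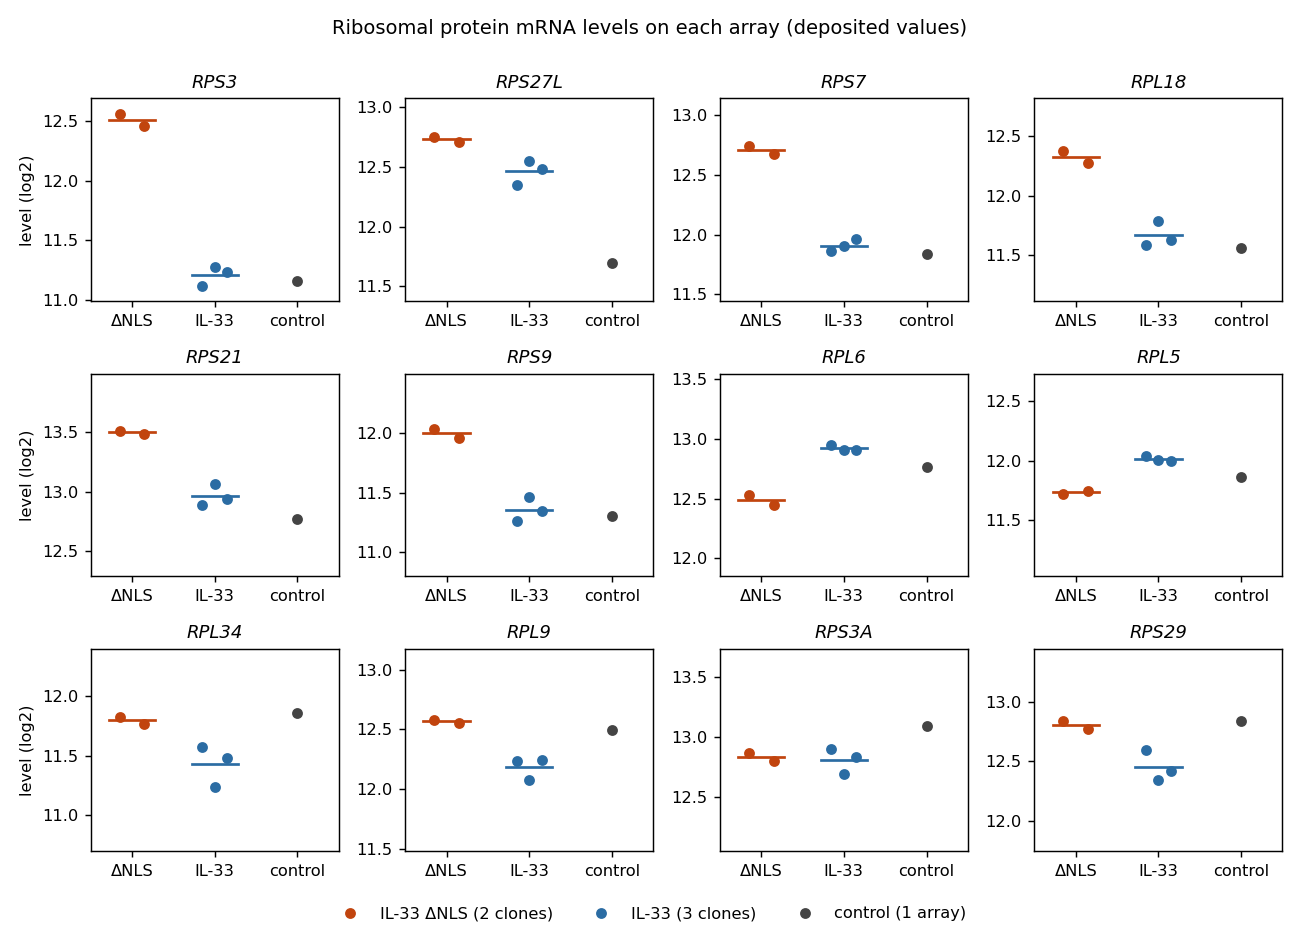
Level (log2, deposited values, y axis) of 12 ribosomal protein genes on each array, with ΔNLS clones (orange), IL-33 clones (blue) and the control (grey), 1 point per array and a line at the mean of each group of clones; each panel spans the same number of log2 units. The ΔNLS points stand above all others in RPS3, RPS7, RPL18, RPS21 and RPS9 and below all others in RPL6 and RPL5.

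RPL6 and RPL5 were the members called lower in ΔNLS as deposited, RPL6 against both groups and RPL5 against IL-33. RPL6, a large-subunit protein, was at 12.53 and 12.45 in the ΔNLS clones, 12.95, 12.91 and 12.91 in the IL-33 clones and 12.76 in the control. The ΔNLS clones were the lowest and the IL-33 clones the highest, without overlap. The difference was −0.28 ± 0.08 against control (adjusted p = 0.0356) and −0.43 ± 0.06 against IL-33 (adjusted p = 0.00294), and −0.49 and −0.65 after quantile normalization (adjusted p = 0.00668 and 0.00126). A probe set that RPL6 shares with the pseudogene RPL6P27 gave −0.10 against control and −0.18 against IL-33. The call against control was lost when the arrays were centred on their medians (adjusted p = 0.376), when only the 2 groups were fitted (0.0646), without the variance trend (0.0864), and without IL-33 clone 3 (0.0645), IL-33 clone 9 (0.072) or ΔNLS clone 4 (0.0656).

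RPL5, which with RPL11 binds the p53 regulator MDM2 when ribosome assembly is disturbed, was at 11.72 and 11.75 in the ΔNLS clones, 12.04, 12.002 and 11.996 in the IL-33 clones and 11.86 in the control. Its difference between ΔNLS and IL-33 was −0.28 ± 0.06 (adjusted p = 0.0125), and its difference from control of −0.13 did not pass (adjusted p = 0.251). The direction depends on the probe set, since the other RPL5 probe set was higher in ΔNLS, by 0.47 against control and 0.49 against IL-33, and the mean of both gave 0.10 against IL-33 (adjusted p = 0.208). RPL11 was at 13.30 in both ΔNLS clones, 13.10, 13.10 and 13.03 in the IL-33 clones and 12.93 in the control, a rise of 0.37 ± 0.07 in ΔNLS (adjusted p = 0.0127) that was lost after quantile normalization (adjusted p = 0.212).

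The median of the small-subunit genes was above that of the large-subunit genes in every clone. Against control, 18 of 24 small-subunit members rose in ΔNLS (75%) and 0 fell, with a median of 0.46. Of 44 large-subunit members 20 rose (45.5%) and 1 fell (2.27%), with a median of 0.23. Of all genes 14.8% were called higher and 23.5% lower. After quantile normalization 12 small-subunit members rose (50%) and 1 fell (4.17%), with a median of 0.27. Among large-subunit members 10 rose (22.7%) and 2 fell (4.55%), with a median of 0.13. The shares of all genes were then 19.9% higher and 16.5% lower. The large-subunit share called higher was then near that of all genes. The large minus the small subunit median was −0.24 and −0.17 in ΔNLS clones 3 and 4 and −0.06, −0.09 and −0.06 in the clones 3, 5 and 9 of full-length IL-33. Quantile normalization put it at −0.17 in both ΔNLS clones and between −0.09 and −0.06 in the IL-33 clones, with the sign kept in all 5. Between ΔNLS and IL-33 the large and small subunit medians were 0.28 and 0.31 as deposited and 0.102 and 0.105 after quantile normalization. All 5 values share the control array, and the members share the arrays, so no test was made of the difference between subunits.

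**Figure D3:**
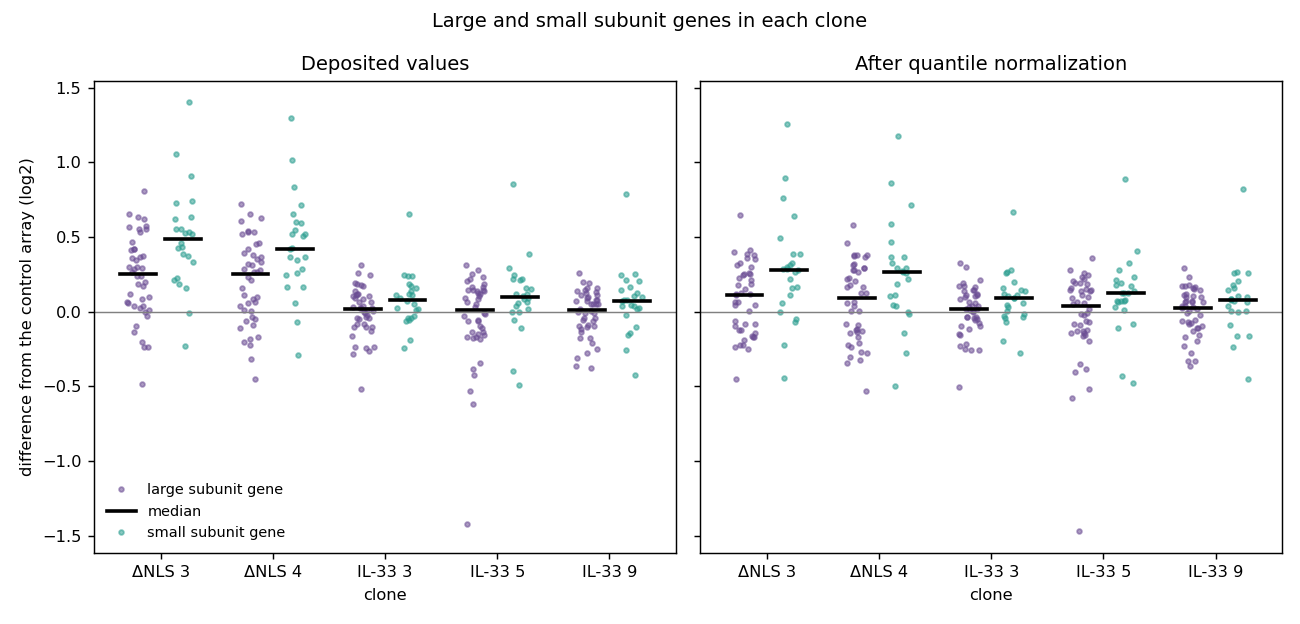
Difference from the control array (log2, y axis) of each large-subunit gene (purple, 44 genes) and each small-subunit gene (green, 24 genes) in the 5 clones (x axis), as deposited (left) and after quantile normalization (right), with a bar at the median. The bar of the small subunit is the higher one in all 5 clones in both panels, and the point near −1.4 in IL-33 clone 5 is RPL27A.

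Groups of members with a shared role were read for the same comparison. The acidic stalk proteins RPLP1 and RPLP2, which recruit elongation factors, both rose in ΔNLS against control, by 0.28 ± 0.07 (adjusted p = 0.0247) and 0.54 ± 0.07 (adjusted p = 0.00389). Quantile normalization left RPLP2 called (0.29) and RPLP1 not (0.04, adjusted p = 0.655), and averaging the probe sets of RPLP2 ended its call (adjusted p = 0.124). Of 7 members at the peptide exit tunnel and its rim, 2 rose (28.6%, against 14.8% of all genes) and 0 fell. Those that rose were RPL35 (0.53 ± 0.07, adjusted p = 0.00485) and RPL39 (0.54 ± 0.08, adjusted p = 0.00497), with 0.36 and 0.29 after quantile normalization. The group median was 0.07, and −0.17 after quantile normalization, where 2 of the 7 were called higher (28.6%, against 19.9% of all genes) and 1 lower. RPL4, which reaches into the tunnel, was at 12.91 and 12.74 in ΔNLS, 12.76, 12.71 and 12.72 in IL-33 and 12.64 in the control and did not pass (0.18, adjusted p = 0.173). Of 13 members mutated in Diamond-Blackfan anaemia, 7 rose (53.8%, against 14.8% of all genes) and 0 fell, among them RPS19 at 13.14 and 13.11 in ΔNLS, 12.76, 12.90 and 12.77 in IL-33 and 12.52 in the control (0.61 ± 0.09, adjusted p = 0.00547) and RPS24 at 13.36 and 13.34 in ΔNLS, 12.98, 12.98 and 12.97 in IL-33 and 12.83 in the control (0.52 ± 0.07, adjusted p = 0.00404). After quantile normalization 3 of the 13 rose (23.1%, against 19.9% of all genes), RPS7, RPS19 (0.37) and RPS24 (0.27). The 38 members with a TOP start at the annotated base had a median of 0.40 (0.22 after quantile normalization). The 18 with none at that base had 0.29 (0.15 after quantile normalization), and some of them may have such a start nearby. The differences of these 18, from −0.28 to 1.04, lay within those of the 38, from −0.47 to 1.35.

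Other highly expressed genes also moved up on the ΔNLS arrays, by less. Among genes with a mean level from 12 to 13, the 39 members had a median difference from control of 0.37, with 59.0% called higher, and the 87 other genes 0.11, with 23.0% called higher. After quantile normalization these were 0.21, with 41.0% called higher, for the members and −0.06, with 11.5% called higher, for the other genes. Above a level of 13 the 14 members had a median of 0.37 and the 18 other genes 0.16 as deposited, and 0.12 and −0.08 after quantile normalization. No test was made of these medians.

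**Figure D4:**
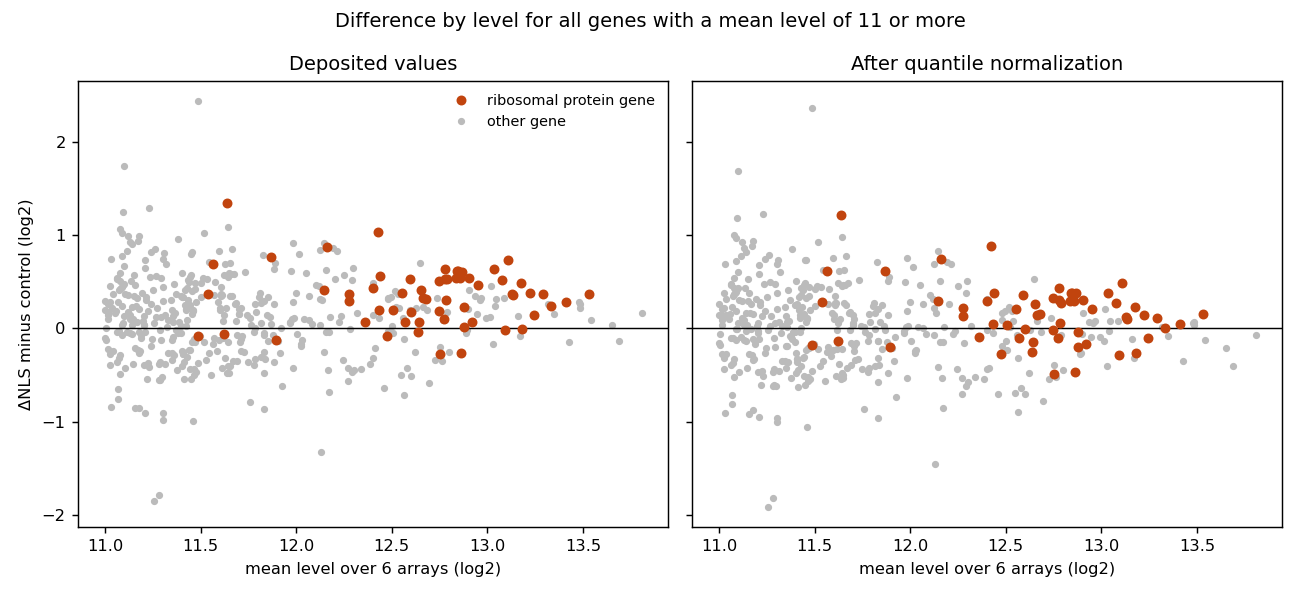
ΔNLS minus control (log2, y axis) against the mean level over 6 arrays (log2, x axis) for the 60 ribosomal protein genes (orange) and 421 other genes (grey) with a mean level of 11 or more, as deposited (left) and after quantile normalization (right). The orange points lie mostly in the upper part of the grey ones at the same level, and both sets are lower in the right panel.

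The ΔNLS clones were also compared with the IL-33 clones, which differ in whether the protein carries the signal for entry into the nucleus. That is not the only difference. According to the study the deletion also disables the chromatin-binding motif, and the ΔNLS protein was secreted at high levels and not kept in the cell. The IL33 mRNA was at 6.50 and 6.62 in ΔNLS and at 8.38, 6.40 and 9.50 in the IL-33 clones. As deposited, 46 of 68 members were higher in ΔNLS (67.6%, against 16.1% of all genes) and 2 lower (RPL6 and RPL5, 2.94%, against 31.4%), with a median of 0.29, beside −0.13 over all genes. In 54 members (79.4%, against 25.4% of all genes) both ΔNLS arrays were above all 3 IL-33 arrays, and in 3 (RPL10L, RPL5 and RPL6, 4.41%, against 44.4%) both were below. Quantile normalization left 18 members higher (26.5%, against 22.1% of all genes), all of them among the 46, and 3 lower (RPL6, RPL5 and RPL31, against 20.9%), with a median of 0.10, beside 0.01. The groups then did not overlap in 34 members that were higher (50%, against 34.5%) and in 11 that were lower (16.2%, against 33.0%). Without ΔNLS clone 3 the deposited values gave 27 members called in all, in place of 48. The share of members called higher was near that of all genes once the arrays had the same distribution.

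Behind RPS3, RPS7 and RPL18 the largest differences from IL-33 were those of RPS14, RPS9 and RPL8. RPS14, a small-subunit gene that is lost in a form of myelodysplastic syndrome, was at 13.18 and 13.20 in ΔNLS, 12.59, 12.54 and 12.49 in IL-33 and 12.65 in the control. The rise against IL-33 was 0.645 ± 0.06 (adjusted p = 0.00122), and its 2 other probe sets, of lower signal, both gave 0.80. RPL8, a large-subunit protein near the peptidyl transferase center, was at 12.86 and 12.82 in ΔNLS, 12.30, 12.10 and 12.27 in IL-33 and 12.28 in the control, a rise of 0.61 ± 0.08 against IL-33 (adjusted p = 0.00284). RPS9 rose by 0.64 ± 0.08 (adjusted p = 0.00281). All 6 of these genes were called higher after quantile normalization too, with differences from 0.42 to 1.15. RPL10, a large-subunit protein of the same size of change (0.57 ± 0.06 against IL-33, adjusted p = 0.0021, and 0.30 after quantile normalization), was at 13.44 and 13.41 in ΔNLS, 12.79, 12.95 and 12.83 in IL-33 and 12.78 in the control.

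Full-length IL-33 went with little change in the family. Of 68 members 1 rose against control (RPS27L, 1.47%, against 3.65% of all genes) and 0 fell (against 4.0%), and 12 (17.6%, against 26.3% of all genes) had an unadjusted p under 0.05. The median of the members was 0.05, beside 0.04 over all genes, and it was 0.03, 0.07 and 0.05 in clones 3, 5 and 9. All 3 clones were above the control in 32 members (47.1%, against 38.7% of all genes) and below it in 19 (27.9%, against 27.6%). Quantile normalization gave the same single call (against 4.42% of all genes called higher and 4.22% called lower) and a median of 0.06, with all 3 clones above the control in 35 members (51.5%, against 39.1%) and below it in 18 (26.5%, against 30.6%).

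The members with the lowest p after RPS27L in the IL-33 clones did not pass the test. RPS19, the gene most often mutated in Diamond-Blackfan anaemia, differed by 0.29 ± 0.08 (adjusted p = 0.0891) and RPL22, a large-subunit protein that also binds RNA outside the ribosome, by 0.28 ± 0.07 (adjusted p = 0.0812). RPL22 was at 12.70, 12.76 and 12.70 in the IL-33 clones and 12.44 in the control. On the lower side RPL3, a large-subunit protein that in yeast shapes the peptidyl transferase center, was at 12.53, 12.42 and 12.46 in the IL-33 clones and 12.77 in the control (−0.30 ± 0.08, adjusted p = 0.0715). In RPS19, RPL22 and RPL3 the clones lay on 1 side of the single control, by more than their own range, on the probe set used. The other probe set of RPS19 gave −0.07 in IL-33 against control, while those of RPL22 and RPL3 kept the sign.

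Among the members with values below control in the IL-33 clones, 4 lie on chromosomes 4 and 14. RPL34, a large-subunit protein, was at 11.83 and 11.77 in ΔNLS, 11.58, 11.24 and 11.48 in IL-33 and 11.86 in the control. RPL9, also of the large subunit, was at 12.58 and 12.55 in ΔNLS, 12.23, 12.07 and 12.24 in IL-33 and 12.49 in the control. RPS3A, of the small subunit, was at 12.86 and 12.80 in ΔNLS, 12.90, 12.69 and 12.83 in IL-33 and 13.09 in the control. These are the 3 members on chromosome 4, and the IL-33 clones were below the control in all of them, with differences of −0.43, −0.31 and −0.28 that did not pass (adjusted p = 0.127, 0.1 and 0.136). RPS29, a zinc-binding small-subunit protein on chromosome 14, was at 12.83 and 12.77 in ΔNLS, 12.60, 12.35 and 12.42 in IL-33 and 12.84 in the control, a difference of −0.39 in IL-33 (adjusted p = 0.0904).

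The other genes on these chromosomes were low as well. The 399 other genes of chromosome 4 above background had a median of −0.79 in ΔNLS and −0.45 in IL-33 against control, and the 383 of chromosome 14 had −0.46 and −0.34. In ΔNLS the differences of RPL34, RPL9, RPS3A and RPS29 were −0.06, 0.07, −0.26 and −0.04, none of which passed as deposited (adjusted p = 0.773, 0.599, 0.0964 and 0.823), and all 4 were above the median of their chromosome. After quantile normalization RPS3A was lower in ΔNLS than in the control (−0.47, adjusted p = 0.0237). RPL21, the only member on chromosome 13, had 0.32 in ΔNLS (adjusted p = 0.0247) and 0.18 in IL-33 (adjusted p = 0.188). Its ΔNLS call was lost after quantile normalization (0.15). The 187 other genes of that chromosome had medians of 0.11 and 0.30 as deposited. The chromosome medians were taken from deposited values only, and the other genes were not matched to the members in level. The part of the chromosomes in these values was not tested.

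Several probe sets of a gene did not always agree. Over all 176 probe sets of the members, 134 were above 0 in ΔNLS against control, with a median of 0.32, and over the 108 that were not used as the gene's value 79 were, also with a median of 0.32. Still, 23 of the 50 genes with several probe sets had differences of both signs in that comparison. The widest gaps were those of RPL28, RPL10, RPS23 and RPL37A, all of which had dim probe sets beside bright ones. In RPL28 the value used was 0.38 and the 9 probe sets ran from −0.96 to 1.29, the lowest of them below background. In RPS23 another probe set gave −1.14 beside 0.35 and 0.46 for the brighter ones. Of the probe sets used, 34 carried the suffix x and 22 the suffix s, which the manufacturer gives to sets that can bind other transcripts, and ribosomal protein genes have many pseudogenes, so each value may hold signal from near-identical copies.

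Clones of 1 construct were alike in most members. The range over the IL-33 clones had a median of 0.09 over the 68 members (0.21 over all genes), and over the ΔNLS clones 0.04 (0.13 over all genes). RPL39L, at 7.79, 8.50 and 7.95 in the IL-33 clones, varied more than most. The widest range over the IL-33 clones was that of RPL27A, a large-subunit protein. It was at 5.00 and 5.03 in ΔNLS, 5.80, 4.06 and 5.64 in IL-33 and 5.48 in the control. RPL27A thus lay below background in IL-33 clone 5, on a dim probe set. Its 2 probe sets shared with other symbols rose by 1.01 and 1.05 in ΔNLS against control, against −0.47 for the value used, which did not pass (adjusted p = 0.621).

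Genes that serve the ribosome were read beside its proteins, from lists chosen for their role. In ΔNLS against control the median of these 6 lists lay between −0.38 and 0.09, beside 0.32 for the members and −0.09 over all genes, of which 14.8% were called higher and 23.5% lower. After quantile normalization the lists lay between −0.28 and 0.10, beside 0.15 for the members and 0.05 over all genes, with 19.9% called higher and 16.5% lower. Of 16 other TOP mRNAs, which encode translation factors, 3 rose and 3 fell, with a median of −0.08, and 0 rose and 5 fell after quantile normalization. EEF2, the elongation factor that moves the ribosome along, was at 13.17 and 13.13 in ΔNLS, 12.80, 12.90 and 12.82 in IL-33 and 12.80 in the control (0.35, adjusted p = 0.0188), which was lost after quantile normalization (0.07, adjusted p = 0.483). EIF3A, a subunit of the initiation factor that binds the small subunit, fell, at 9.32 and 9.17 in ΔNLS, 9.98, 9.98 and 9.99 in IL-33 and 9.76 in the control (−0.51, adjusted p = 0.0182).

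Of 39 ribosome biogenesis factors 10 rose and 7 fell, with a median of 0.05, and 9 rose and 9 fell after quantile normalization. EIF6, which keeps new large subunits from joining small ones, was at 11.69 and 11.67 in ΔNLS, 10.57, 10.29 and 10.56 in IL-33 and 10.61 in the control (1.07 ± 0.14, adjusted p = 0.00458). GAR1, a protein of the small nucleolar particles that modify ribosomal RNA, was at 7.86 and 7.62 in ΔNLS, 9.05, 8.59 and 8.77 in IL-33 and 9.37 in the control (−1.63 ± 0.21, adjusted p = 0.00437). Of 14 genes of the RNA polymerase I machinery, which transcribes ribosomal RNA, 2 rose and 5 fell, with a median of −0.38, and 3 rose and 4 fell after quantile normalization. POLR1F was at 8.01 and 7.998 in ΔNLS, 9.15, 9.35 and 9.08 in IL-33 and 9.19 in the control (−1.19 ± 0.14, adjusted p = 0.00374), and POLR1C, which RNA polymerase III shares, at 7.76 and 7.77 in ΔNLS, 7.29, 7.48 and 7.34 in IL-33 and 6.58 in the control (1.18 ± 0.13, adjusted p = 0.00305).

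Of 14 genes that lead from TOR to the translation of TOP mRNAs, 2 rose and 4 fell in ΔNLS, and 2 rose and 5 fell after quantile normalization. EIF4EBP1, a brake on cap-dependent translation that TOR releases, was lower in both groups of clones, at 10.48 and 10.71 in ΔNLS, 10.42, 10.11 and 10.41 in IL-33 and 11.40 in the control, with differences of −0.80 (adjusted p = 0.0173) and −1.09 (adjusted p = 0.0232). The IL-33 call was lost when only the 2 groups were fitted (adjusted p = 0.121) and without IL-33 clone 9 or either ΔNLS clone. Of 74 mitochondrial ribosomal proteins, which belong to a separate ribosome, 11 rose (14.9%) and 18 fell (24.3%), shares near those of all genes, with a median of −0.06. After quantile normalization 13 rose and 17 fell. MRPL1 was at 7.61 and 7.40 in ΔNLS, 8.61, 8.45 and 8.44 in IL-33 and 9.15 in the control (−1.64 ± 0.15), and MRPL54 at 9.54 and 9.53 in ΔNLS, 8.57, 8.77 and 8.67 in IL-33 and 8.61 in the control (0.92 ± 0.13). Of 5 ribosomal proteins measured under symbols outside the rule, 0 rose and 2 fell in ΔNLS, RPL26L1, a paralogue of RPL26, at 10.34 and 10.22 in ΔNLS, 10.58, 10.51 and 10.54 in IL-33 and 11.25 in the control (−0.97 ± 0.10, adjusted p = 0.00271), and RPL36AL (−0.52, adjusted p = 0.0277). After quantile normalization EIF3A (−0.48), EIF6 (1.01), GAR1 (−1.54), POLR1F (−1.12), POLR1C (1.27), EIF4EBP1 (−0.85), MRPL1 (−1.55), MRPL54 (0.94), RPL26L1 (−0.998) and RPL36AL (−0.53) were still called against control.

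In IL-33 against control the same lists held 0 called of 16 other TOP mRNAs and 0 of 39 biogenesis factors. POLR1C rose (0.78, adjusted p = 0.0261), and RPL26L1 (−0.71, adjusted p = 0.0185), EIF4EBP1 and 5 of 74 mitochondrial ribosomal proteins (6.76%) fell. Of all genes 3.65% were called higher and 4.0% lower. After quantile normalization 5 mitochondrial ribosomal proteins fell too, where 4.42% of all genes were called higher and 4.22% lower. In ΔNLS against IL-33, 5 of 16 other TOP mRNAs were higher and 3 lower. Of 39 biogenesis factors 8 were higher (20.5%) and 12 lower (30.8%). Of 14 genes of the RNA polymerase I machinery 2 were higher and 7 lower, and of the 14 of the TOR list 3 and 3. Of 74 mitochondrial ribosomal proteins 15 were higher (20.3%) and 14 lower (18.9%). The shares of all genes were 16.1% higher and 31.4% lower. After quantile normalization these counts, in the same order, were 1 and 5, 8 and 13, 2 and 5, 3 and 3, and 18 and 14. Of all genes 22.1% were then called higher and 20.9% lower.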

How the data were processed

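RNA of 6 U87 lines was hybridised to PrimeView arrays. The authors deposited normalized log2 values, made with Partek 6.0 per the submitters' processing notes. The base of the log was taken from the values, which reach 14.16, and the normalization method is not given in the sources used here. Arrays carry no read depth, so their number limits the precision. The methods name a test made for counts, which could not be applied to log values. Here 44994 of 49395 probe sets had 1 gene symbol and gave 18132 genes, each by its probe set with the highest mean. Group means were fitted with limma 3.58.1 (lmFit, eBayes with trend, R 4.3.3) over all 6 arrays, with 3 residual degrees of freedom, Benjamini-Hochberg adjustment and a threshold of 0.05. Self-tests ran on simulated data. Alternatives were quantile normalization, median centring, only the 2 groups compared, no trend, robust eBayes, the mean of all probe sets, genes above background, and leaving out each clone. Tables and figures were made with Python 3.11.15, pandas 2.3.3 and matplotlib 3.10.9.

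Named were up to 6 called members of largest increase and decrease per comparison, paralogues ending in L, members on chromosomes 4, 13, 14 and 18, up to 4 genes with probe sets of opposite sign, up to 3 genes of lowest p per list, and IL33. RPL3, RPL10, RPL11, RPL22, RPL27A, RPS19, RPS24, RPS27 and the role groups were added after their values were seen. The members and lists were chosen with earlier results of these data known.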

Additional observations from a re-analysis of the deposited data

Results flagged for a closer look

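In 14 of the 68 ribosomal protein genes the control array lay between both ΔNLS clones and all 3 IL-33 clones. This split is what flagged them, and the share of all genes that showed it was not counted. Over all genes, both ΔNLS arrays were above all 3 IL-33 arrays in 25.4% and below them in 44.4%. Adjusted p-values of ΔNLS against IL-33 (limma, Benjamini-Hochberg over all genes) are given as a description, since the genes were picked for that separation. In 12 the ΔNLS clones were the higher ones: RPS14 by 0.645 (adjusted p = 0.00122), RPL35A by 0.54 (0.0177), RPL13 by 0.49 (0.00617), RPL27 by 0.45 (0.00304), RPL9 by 0.38 (0.00927), RPL29 by 0.38 (0.0039), RPL41 by 0.37 (0.0029), RPL3 by 0.36 (0.0056), RPL23 by 0.30 (0.0128), RPL36 by 0.30 (0.0375), RPL37A by 0.26 (0.012) and RPS27 by 0.19 (0.0506). RPL6 (−0.43, 0.00294) and RPL5 (−0.28, 0.0125) ran the other way. The split rests on the probe set used in RPL3, RPL5, RPL9, RPL35A, RPL37A and RPL41, where another gave a difference from control of opposite sign. In ΔNLS against control the lowest were −0.36 for RPL3, −0.47 for RPL9, −0.49 for RPL41 and −0.76 for RPL37A. In RPL27, RPL36 and RPS14 all probe sets kept both signs, and the other flagged genes had 1 probe set of their own. After quantile normalization RPL3, RPL9, RPL23, RPL29, RPL36, RPL37A and RPL41 no longer passed, and RPS27 did not pass with either set of values. Single-array outliers were not looked for, since no group held 4 arrays.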

How the results depend on the processing

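As deposited, 39 ribosomal protein genes were called in ΔNLS against control, 48 in ΔNLS against IL-33 and 1 in IL-33 against control. Quantile normalization gave 25, 21 and 1 calls, of which 23, 20 and 1 were among those called as deposited. By direction, quantile normalization gave 22 higher and 3 lower in ΔNLS against control (32.4% and 4.41%, against 19.9% and 16.5% of all genes). In ΔNLS against IL-33 it gave 18 higher and 3 lower (26.5% and 4.41%, against 22.1% and 20.9%). Centring the arrays on their medians gave 49 higher and 0 lower in ΔNLS against control (72.1% and 0%, against 23.4% and 15.6% of all genes). In ΔNLS against IL-33 centring gave 58 higher and 1 lower (85.3% and 1.47%, against 26.9% and 19.5%). In IL-33 against control 0 were called with only the 2 groups fitted and 2 among genes above background. Leaving out 1 clone gave 25 to 44, 27 to 50 and 0 to 2 calls, the lowest without ΔNLS clone 3 in both ΔNLS comparisons, and 0 in IL-33 without IL-33 clone 9 or either ΔNLS clone. With quantile normalization and 1 clone left out, which was added after seeing the data, ΔNLS against control gave 5 (without ΔNLS clone 3), 6 (ΔNLS clone 4), 20 (IL-33 clone 9), 21 (IL-33 clone 3) and up to 30, ΔNLS against IL-33 gave 6, 8, 14, 15 and 28 (IL-33 clone 5), and IL-33 against control gave 0 without either ΔNLS clone, 2 without IL-33 clone 3 and 4 without IL-33 clone 5. A fit without a clone has fewer arrays, and its counts have no share of all genes beside them. For the rest the cause was not tested.

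The median over the members in ΔNLS against control was 0.1545 with quantile normalization, 0.5069 with centred arrays, 0.2802 with averaged probe sets and 0.2993 to 0.3414 without 1 clone. In ΔNLS against IL-33 it was 0.1019, 0.4731, 0.2291 and 0.2793 to 0.3133, and in IL-33 against control 0.027 to 0.0502 without 1 clone. Over all genes the median with centred arrays was 0.09 in ΔNLS against control and 0.06 in ΔNLS against IL-33. The large minus small subunit median in ΔNLS against control was −0.1402 with quantile normalization, −0.2875 with averaged probe sets and −0.2366 to −0.1739 without 1 clone. In ΔNLS against IL-33 it was −0.003 with quantile normalization, −0.1762 with averaged probe sets and −0.0563 to −0.0273 without 1 clone, and in IL-33 against control −0.0909 to −0.0351.

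With quantile normalization 11 of the 68 members changed sign in ΔNLS against control, 21 in ΔNLS against IL-33 and 1 in IL-33 against control. The following covers the named comparisons. In ΔNLS against control this was so with quantile normalization for RPL3L (0.214), RPL9 (−0.0903), RPL37A (−0.1051), RPL3 (−0.1414), RPS27 (−0.1048) and RPL4 (−0.0151), with centred arrays for RPL34 (0.1247), RPL3L (0.0693), RPS29 (0.1485), RPL5 (0.0604) and RPL23A (0.1651), with averaged probe sets for RPL9 (−0.1972), RPS29 (0.2938), RPS23 (−0.1076) and RPL5 (0.1729), and with 1 clone left out for RPL10L (−0.0013 to 0.085), RPL23A (−0.0653 to 0.0242) and RPL3L (−0.2401 to 0.0075). In ΔNLS against IL-33 it was so for RPL37A (−0.0007), RPS27 (−0.0083), RPLP1 (−0.0348) and RPL31 (−0.2032) with quantile normalization and for RPL5 (0.1048), RPL31 (−0.0225) and RHEB (0.4031) with averaged probe sets, and in IL-33 against control for RPL3L with 1 clone left out (−0.0437 to 0.1478). The cause was not tested.

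No paired analysis was possible because the groups share only clone number 3, and clone numbers name separate cell lines. Only 6 arrays, 1 of them a control, limit the precision, and the spread of the control was not measured.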

Other observations

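RPL17, a large-subunit protein on chromosome 18, was measured only on 3 probe sets that it shares with its readthrough transcript. The brightest was at 13.27 and 13.21 in the ΔNLS clones, 12.77, 12.88 and 12.90 in the IL-33 clones and 12.41 in the control, so that all 5 clones lay above the control. The differences from control were 0.82, 0.73 and 0.60 in ΔNLS and 0.44 on each set in IL-33. They were not tested, since no gene value was formed from shared probe sets.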
